A study of Homo sapiens with 8 samples.

Results

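The 4 genes CD34, CD38, MME and VPREB1 are markers of early progenitor and lymphoid stages, chosen as the probe sets that the annotation table assigns to these symbols. Each gene had 1 probe set, so they make up 4 of the 14884 genes measured under a symbol. The genes were proposed with their levels on these same arrays in view, so all differences between lines and constructs below are descriptions of these arrays and carry no test.

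Expression was measured on 8 Affymetrix arrays from CCRF-CEM and HPB-ALL, 2 established human lines of T cell acute lymphoblastic leukaemia. In each line, 1 array came from cells with the short hairpin shTOX-1, 1 from cells with shTOX-2, 1 from cells with a scramble hairpin and 1 from untransduced cells. The 3 transduced cultures of a line were spinoculated with virus, selected with puromycin and kept for at least 2 weeks, steps that the labels describe for transduced cells. Both hairpins target TOX, an HMG-box nuclear protein needed for T cell development, and the labels do not state whether arrays came from separate cultures or clones.

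The 4 markers are read in leukaemia diagnosis to place blasts along lymphoid development. CD34 is a sialomucin of haematopoietic stem and progenitor cells that the earliest thymic immigrants still carry and that is lost as thymocytes mature. CD38 is a surface enzyme that consumes NAD and is present on most thymocytes. MME encodes neprilysin, a zinc metallopeptidase known in haematology as CD10 or the common acute lymphoblastic leukaemia antigen. VPREB1 encodes part of the surrogate light chain, which pairs with the IGLL1 product and the immunoglobulin heavy chain in the receptor of pre-B cells.

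The sequence before the start of transcription of each marker is shown because the 4 genes had different patterns over the constructs. Each run below is the 250 bases before the most upstream start in the RefSeq promoter table (GRCh38.p14), read 5′ to 3′ along the gene's strand, with E-boxes (CANNTG, the letters bound by E proteins and TAL1) in capitals. CD34 lies at chr1:207911126-207911375 on the minus strand, CD38 at chr4:15778078-15778327, MME at chr3:155079422-155079671 and VPREB1 at chr22:22244536-22244785, the last 3 on the plus strand.
CD34: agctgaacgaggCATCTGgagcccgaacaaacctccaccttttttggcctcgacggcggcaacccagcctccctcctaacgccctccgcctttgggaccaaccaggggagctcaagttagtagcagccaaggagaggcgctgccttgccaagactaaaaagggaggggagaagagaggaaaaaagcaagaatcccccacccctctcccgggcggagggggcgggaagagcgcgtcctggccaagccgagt
CD38: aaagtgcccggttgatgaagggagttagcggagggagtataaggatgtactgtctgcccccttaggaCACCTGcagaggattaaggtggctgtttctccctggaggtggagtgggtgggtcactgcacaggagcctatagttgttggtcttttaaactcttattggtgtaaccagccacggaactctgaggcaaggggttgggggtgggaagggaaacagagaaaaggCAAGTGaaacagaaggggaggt
MME: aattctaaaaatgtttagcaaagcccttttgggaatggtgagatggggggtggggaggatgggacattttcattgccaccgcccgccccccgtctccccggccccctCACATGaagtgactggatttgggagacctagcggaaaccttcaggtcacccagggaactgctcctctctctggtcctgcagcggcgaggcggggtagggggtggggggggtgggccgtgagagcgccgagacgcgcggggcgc
VPREB1: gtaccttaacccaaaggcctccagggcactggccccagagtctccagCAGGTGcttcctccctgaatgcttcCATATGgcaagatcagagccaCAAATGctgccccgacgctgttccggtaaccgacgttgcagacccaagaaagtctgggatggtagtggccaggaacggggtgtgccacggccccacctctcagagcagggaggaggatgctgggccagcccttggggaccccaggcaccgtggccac
VPREB1 held 3 E-boxes, CD38 held 2, and CD34 and MME held 1 each, where 61.8% of all 35116 windows of this length held at least 1. A TCF/LEF core (CTTTG, either strand) was found once each in CD34, MME and VPREB1 and in 42.1% of all windows. The letters CCCNNGGG, the core bound by the B cell factor EBF, were found once in VPREB1 and in 17.1% of all windows. GATAA (GATA factors) and TGTGGT (RUNX factors) were in none of the 4 windows, against 20.4% and 11% of all windows. No match overlapped a match of another motif. MME has 4 starts in the table, of which the other 3 lie downstream and were not searched.

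TOX, the targeted gene, was lower on each shTOX array than on both control arrays of its line. CCRF-CEM had TOX at a log2 level of 10.65 with shTOX-1 and 9.86 with shTOX-2, against 11.03 with scramble and 11.03 untransduced. In HPB-ALL it had 10.16 with shTOX-1 and 8.75 with shTOX-2, against 10.59 with scramble and 10.64 untransduced. The fitted difference from both controls was -0.96 ± 0.28 and did not pass the test over all genes (limma adjusted p = 0.292). The spread in that fit includes the gap between hairpins, shTOX-2 minus shTOX-1, of -0.79 in CCRF-CEM and -1.41 in HPB-ALL. Of 12 measured T lineage markers, 12 in CCRF-CEM and 9 in HPB-ALL had a mean at or above log2 5.18, the level below which genes were not tested. Of 7 measured B lineage markers, CD72 and PAX5 were at or above this level in both lines, so 5 were not. For other lineages the numbers were 2 of 8 myeloid, 2 of 4 NK and 3 of 3 erythroid and megakaryocyte markers on average in CCRF-CEM. HPB-ALL had 3 of 8, 3 of 4 and 2 of 3. These counts do not compare levels between lineages. In CCRF-CEM the erythroid and megakaryocyte markers had 5.32 to 5.46 (GP9), 5.64 to 5.85 (KLF1) and 6.05 to 6.32 (PF4). T lineage markers there ran from CD8B, at 5.24 to 5.56, up to TRAT1, at 10.58 to 11.61. The arrays had medians of 4.62 to 4.71. Across the 8930 tested genes they correlated at r = 0.949 to 0.985 within a line and 0.876 to 0.908 between lines.

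All 4 markers stood higher in every CCRF-CEM array than in every HPB-ALL array. MME averaged 9.16 ± 0.97 across CCRF-CEM, against 4.93 ± 0.60 across HPB-ALL (SD, n = 4 each), a fitted log2 difference of 4.24 ± 0.44 (standard error) or 18.8-fold. CD38 levels averaged 11.06 ± 0.18 on CCRF-CEM arrays, against 7.67 ± 0.99 on HPB-ALL arrays (SD), a difference of 3.39 ± 0.38 or 10.5-fold. For CD34 the means were 7.65 ± 1.44 for CCRF-CEM, against 4.64 ± 0.32 for HPB-ALL (SD), a difference of 3.01 ± 0.54. VPREB1 had the smallest gap, with a mean of 6.98 ± 0.67 for CCRF-CEM, against 5.53 ± 0.26 for HPB-ALL (SD), a difference of 1.45 ± 0.20 or 2.72-fold. Among all tested genes, 12.8% had every CCRF-CEM array above every HPB-ALL array, and since the markers were chosen on these levels, nothing is read from their share.

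All 4 genes passed the filter on low values, which uses the mean of all 8 arrays, but CD34 and MME passed through CCRF-CEM. CD34 was below log2 5.18 on all 4 HPB-ALL arrays and MME on 2 of 4, so differences of these genes inside HPB-ALL are differences among low signals and their folds between lines are limited by background. VPREB1 lay between 5.23 and 5.86 in HPB-ALL, close above the filter level.

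**Figure D1:**
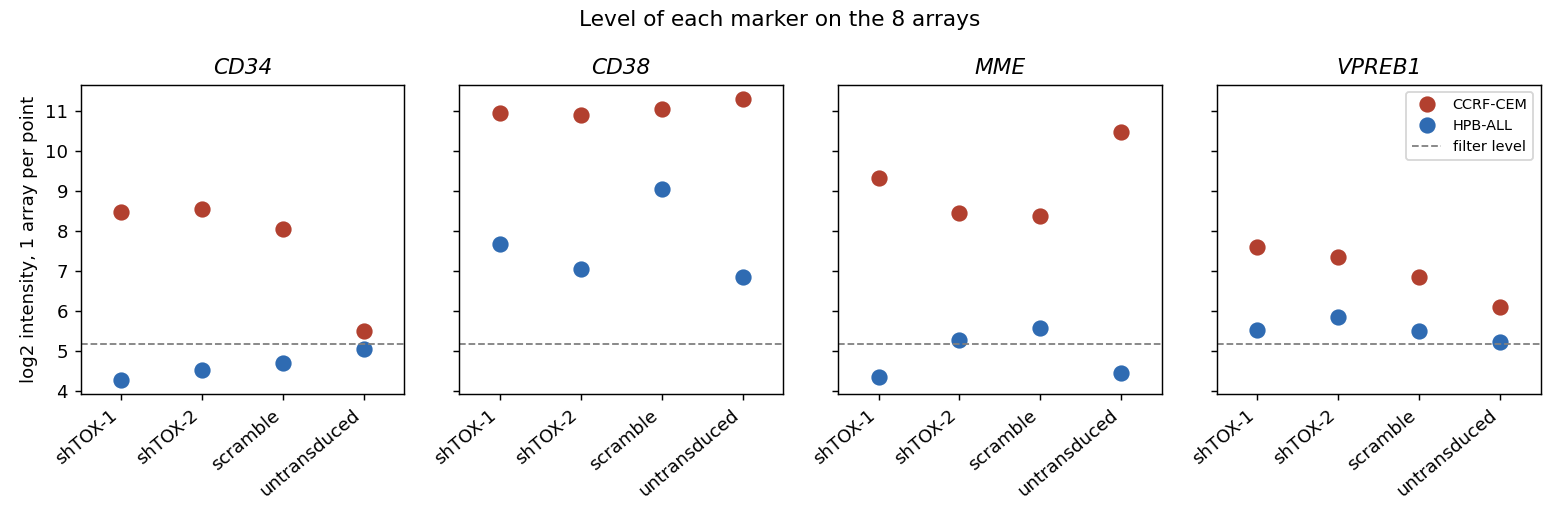
Log2 intensity of CD34, CD38, MME and VPREB1 (y axis) by construct (x axis), 1 point per array, with CCRF-CEM in red and HPB-ALL in blue; the dashed line is the filter level of 5.18. CD34 is at 8.05 to 8.55 on the 3 transduced CCRF-CEM arrays and at 5.52 on the untransduced one, and CD38 is highest in HPB-ALL with scramble, at 9.06.

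CD34 set the transduced CCRF-CEM cells apart from the untransduced ones. Its log2 level was 8.48 with shTOX-1, 8.55 with shTOX-2 and 8.05 with scramble, against 5.52 in untransduced CCRF-CEM cells. The 3 transduced arrays stood within 0.50 of each other, and the lowest of them was 2.53 (5.76-fold) above the untransduced array. With shTOX-1 the gap was 2.96, and with shTOX-2 it was 3.03. In arrays of whole cultures, a larger share of cells with the transcript and more transcript per cell cannot be told apart. Transduction, puromycin selection and the time in culture after them cannot be told apart either, and each line has 1 untransduced array.

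Relative to scramble, the CCRF-CEM difference of CD34 was much smaller, 0.44 (1.35-fold) with shTOX-1 and 0.50 (1.42-fold) with shTOX-2. Of all tested genes, 34.2% had both shTOX arrays above scramble in CCRF-CEM. In HPB-ALL CD34 had 4.29 with shTOX-1 and 4.53 with shTOX-2, against 4.699 with scramble and 5.05 untransduced. All 4 HPB-ALL values were below the filter level, with both shTOX arrays lowest and the untransduced array highest. Both shTOX arrays were below both controls for 16.3% of tested genes in HPB-ALL, and below scramble for 31.6%. Against both controls, the fitted shTOX difference of CD34 was 1.73 ± 0.63 inside CCRF-CEM, and inside HPB-ALL it was -0.47 ± 0.63. Without the untransduced CCRF-CEM array the value within CCRF-CEM was 0.47 ± 0.22, and without the scramble array it was 2.995 ± 0.22, so it depends on which control is used.

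MME was highest on the untransduced array in CCRF-CEM, where CD34 was lowest. Its level was 9.33 with shTOX-1, 8.46 with shTOX-2 and 8.39 with scramble, against 10.47 in untransduced cells. Relative to the untransduced array, shTOX-1 was at -1.14 (2.21-fold lower), shTOX-2 at -2.02 (4.04-fold lower) and scramble at -2.08 (4.23-fold lower) on the log2 scale. The scramble and shTOX-2 arrays differed by 0.06, and shTOX-1 stood 0.94 above scramble although it lowered TOX less than shTOX-2 did. In HPB-ALL MME had 4.37 with shTOX-1 and 5.28 with shTOX-2, against 5.59 with scramble and 4.47 untransduced, so shTOX and control arrays overlapped. The fitted difference of shTOX from scramble over both lines was -0.13 ± 0.53. Leaving out the CCRF-CEM scramble array gave -1.08 ± 0.62, and leaving out that of HPB-ALL gave 0.82 ± 0.62. Within CCRF-CEM the difference from both controls was -0.54 ± 0.66, but -1.58 ± 0.53 without scramble and 0.50 ± 0.53 without the untransduced array.

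Every transduced array of CCRF-CEM was at least 1 above the untransduced one for 0.538% of the tested genes, CD34 among them, and at least 1 below it for 0.997%, MME among them. In HPB-ALL these shares were 0.291% and 0.325% and held none of the 4 markers. The step of 1 was used as a description since each line had 1 untransduced array.

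VPREB1 was the marker whose shTOX arrays lay above both controls in both lines. In CCRF-CEM it had 7.61 with shTOX-1 and 7.37 with shTOX-2, against 6.85 with scramble and 6.10 untransduced. In HPB-ALL it had 5.53 with shTOX-1 and 5.86 with shTOX-2, against 5.51 with scramble and 5.23 untransduced. The groups did not overlap in either line, but the gap between shTOX-1 and scramble in HPB-ALL was 0.02. Among all tested genes, 22.3% in CCRF-CEM and 24.5% in HPB-ALL had both shTOX arrays above both controls. The fitted difference of shTOX from both controls was 0.67 ± 0.20 over both lines. It was 1.01 ± 0.26 for CCRF-CEM alone, against 0.33 ± 0.26 for HPB-ALL alone. The CCRF-CEM value was 0.64 ± 0.24 without the untransduced array, and the HPB-ALL value was 0.18 ± 0.32 without its untransduced array.

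VPREB1 was also higher on the scramble array than on the untransduced array of each line. Scramble was above untransduced by 0.75 for CCRF-CEM, against 0.29 for HPB-ALL, a fitted 0.52 ± 0.24. Against scramble the shTOX difference was 0.41 ± 0.21, and against untransduced 0.93 ± 0.21; these comparisons share arrays. Without the untransduced CCRF-CEM array, the difference from untransduced was 0.54 for shTOX and 0.13 for scramble, and without the untransduced HPB-ALL array it was 1.31 for shTOX and 0.90 for scramble. The hairpin with the larger loss of TOX was not the one with more VPREB1 in both lines: shTOX-2 minus shTOX-1 gave -0.24 for CCRF-CEM, against 0.33 for HPB-ALL.

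CD38 was nearly level across CCRF-CEM and uneven across HPB-ALL. In CCRF-CEM it had 10.95 with shTOX-1 and 10.91 with shTOX-2, against 11.06 with scramble and 11.30 untransduced, a span of 0.40. Both shTOX arrays were below scramble for 33.9% of tested genes in CCRF-CEM, CD38 among them. In HPB-ALL it had 7.69 with shTOX-1 and 7.05 with shTOX-2, against 9.06 with scramble and 6.87 untransduced. The scramble array alone stood high. Relative to it, shTOX-1 was at -1.37 and shTOX-2 at -2.004, whereas both were above the untransduced array, by 0.82 and 0.19. Scramble was at least 1 above the 3 other HPB-ALL arrays for 0.134% of tested genes, CD38 among them.

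The direction of the CD38 difference within HPB-ALL therefore turned with the control. The fitted difference of shTOX from both controls was -0.59 ± 0.57; it was 0.50 ± 0.28 without the scramble array and -1.69 ± 0.28 without the untransduced array. Over both lines shTOX differed from scramble by -0.91 ± 0.39, and by 0.02 ± 0.33 without the HPB-ALL scramble array.

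**Figure D2:**
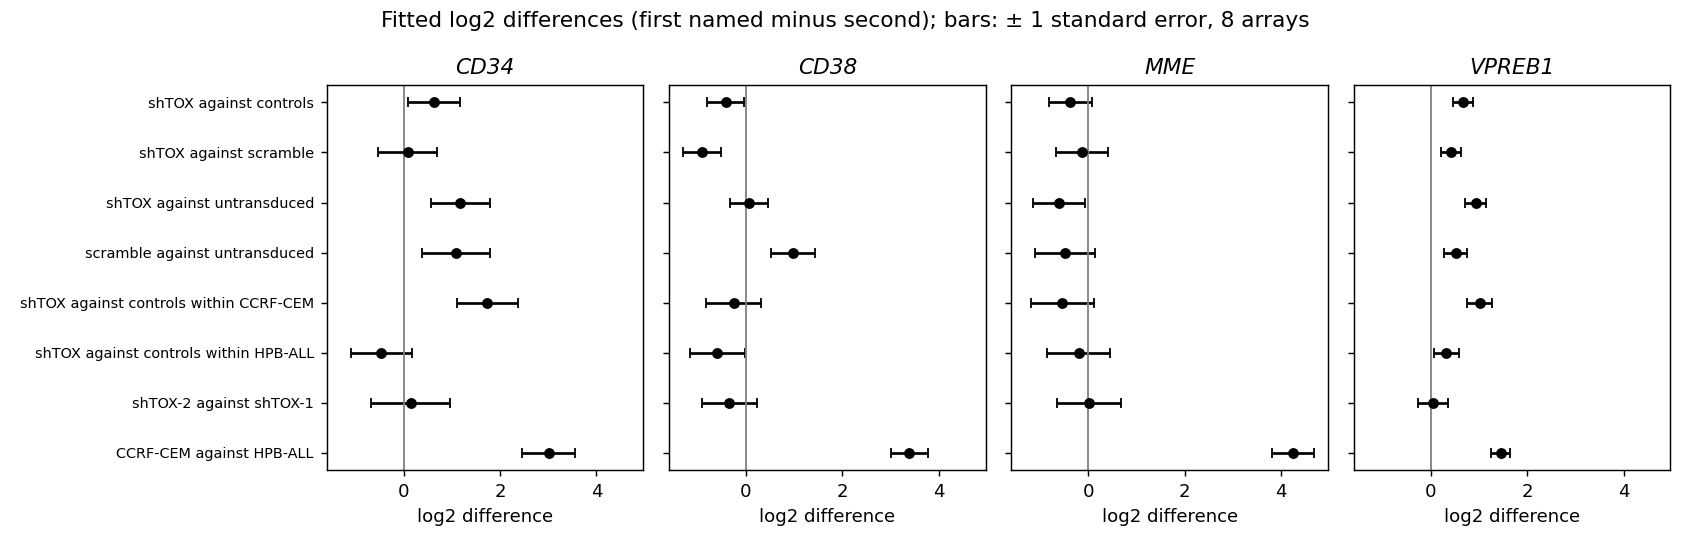
Fitted log2 difference of each marker (x axis) in 8 comparisons (y axis, first named minus second), with bars of ± 1 standard error from a fit on 8 arrays. The difference between the lines runs from 1.45 for VPREB1 to 4.24 for MME, whereas differences of shTOX from scramble run from -0.91 for CD38 to 0.41 for VPREB1.

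Between the hairpins, fitted differences of shTOX-2 minus shTOX-1 were 0.15 ± 0.82 for CD34, -0.34 ± 0.56 for CD38, 0.02 ± 0.66 for MME and 0.05 ± 0.31 for VPREB1. All 4 were smaller than their standard errors. For MME the lines went opposite ways, with -0.87 for CCRF-CEM, against 0.92 for HPB-ALL. Between the lines, the shTOX differences from both controls (CCRF-CEM minus HPB-ALL) differed by 2.20 ± 0.90 for CD34, 0.69 ± 0.37 for VPREB1, 0.34 ± 0.81 for CD38 and -0.34 ± 0.93 for MME. These values depended on single arrays. For CD34 the value was 0.94 without the untransduced CCRF-CEM array and 3.46 without the CCRF-CEM scramble array, and for VPREB1 it was 0.32 and 1.06 in the same fits. For MME these fits gave 0.70 and -1.38. For CD38 it was 1.44 without the untransduced HPB-ALL array and -0.75 without the HPB-ALL scramble array.

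Relatives of the markers were read next, and they too were chosen with earlier results of these data known. BST1, the other member of CD38's enzyme family, had 6.60 with shTOX-1, 6.95 with shTOX-2, 6.72 with scramble and 6.01 untransduced in CCRF-CEM, and 4.84 to 5.40 in HPB-ALL. All 4 CCRF-CEM arrays lay above all 4 HPB-ALL arrays, as was so for 12.8% of all tested genes. The HPB-ALL mean of BST1 was below the filter level, so the gene was tested through its CCRF-CEM levels alone, and its call in limma is not given as support. PODXL and PODXL2, sialomucins related to CD34, and the MME relatives ECE1 and ECEL1 were tested and not called between the lines. MMEL1, the closest relative of MME by name, was below the filter with levels of 4.81 to 5.24.

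IGLL1, the partner of VPREB1 in the surrogate light chain, ran the other way between the lines. It had 7.15 with shTOX-1, 5.98 with shTOX-2, 5.76 with scramble and 5.06 untransduced in CCRF-CEM. In HPB-ALL it had 7.42 with shTOX-1, 7.45 with shTOX-2, 9.07 with scramble and 7.68 untransduced. IGLL1 was thus lower in CCRF-CEM by 1.92 on the log2 scale (-1.92 ± 0.46; limma adjusted p = 0.0119), where VPREB1 was higher. Its highest CCRF-CEM array lay below its lowest HPB-ALL array, as was so for 14.2% of all tested genes. In HPB-ALL the scramble array was the highest for IGLL1, as it was for CD38. IGLL1 and IGLL5 are similar in sequence, so part of the IGLL1 signal may be shared; IGLL5 had 5.03 to 5.47 on all arrays. BLNK, BTK, SYK and VPREB3, further components of the pre-B receptor pathway, were below the filter level in mean.

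Other genes of the progenitor and lymphoid stages were read from lists written from general knowledge, with the 4 markers left out. Earlier results of these data were known when the lists were chosen, so their counts are no independent check of the markers. Between the lines, 2443 of 8930 genes were called in limma (27.4%), 12.4% higher and 14.9% lower in CCRF-CEM, and 38.9% had an unadjusted p under 0.05. Of 15 tested stem and progenitor markers, 6 were higher in CCRF-CEM and 0 lower (median 0.27, against -0.01 over all tested genes). The surface glycoprotein CD99 (2.94 ± 0.15) and the ETS factor ERG (1.05 ± 0.24) were among the 4 of these that reached the filter level in the means of both lines. The other 2, the adhesion receptor CD44 and the TIE2 ligand ANGPT1, entered the test through CCRF-CEM alone. CD44 had 7.51 to 7.76 in CCRF-CEM, against 3.43 to 3.77 in HPB-ALL, and ANGPT1 had 6.96 to 8.16 in CCRF-CEM, against 3.77 to 4.68 in HPB-ALL. Such differences are limited by background, and counts that hold them are not read as support. Over the 13 markers of this list with both means at that level, the median difference was 0.13. Of the 8441 tested genes with both means at that level, 893 were called higher and 1215 lower.

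Of 17 tested early lymphoid progenitor markers, 5 were higher and 4 lower in CCRF-CEM (median 0.25). Adenosine deaminase, ADA, was higher by 1.31 ± 0.13 and the thymus-homing receptor CCR9 by 1.55 ± 0.45, while IGLL1 and the lymph node homing receptor CCR7 (-1.35 ± 0.44) were lower. The CCR9 call was lost in 4 of 14 alternatives and the CCR7 call in 9 of 15, most of them fits without 1 array. Of 21 tested thymocyte stage markers, 18 were higher and 1 lower (median 2.03), but 8 of the 18 had an HPB-ALL mean below the filter level and were tested through CCRF-CEM alone. These 8 were CD1A, CD1B, CD1C, CD1E, CD27, CD28, CD69 and CD8B. CD1E, which presents lipids to T cells, had 6.81 to 10.41 in CCRF-CEM, against 3.66 to 4.27 in HPB-ALL. Among the 13 thymocyte stage markers with both means at the filter level, 10 were higher and 1 lower (median 1.55). Of 12 early T cell precursor factors, BCL11B, needed for T lineage commitment, was higher (1.27 ± 0.11) and SPI1, a factor of progenitors and myeloid cells, was lower (-0.90 ± 0.14).

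Of 11 tested T lineage markers, 11 were higher in CCRF-CEM, among them the T cell receptor kinase LCK (2.40 ± 0.13). Most of the 11 are also thymocyte stage markers counted above, CD7, CD28, CD8B and PTCRA among them. CCR7, CCR9, IGLL1 and SPI1 were each counted in several lists too, so the counts of these lists are not separate results. Of the 11 T lineage markers, CD28 and CD8B had HPB-ALL means below the filter level, and the 9 others reached it in both lines. For NAD metabolism, in which CD38 and BST1 act, 3 of 13 genes were higher, BST1 among them, and 2 lower. NAPRT, which makes NAD from nicotinic acid, was higher by 0.74 ± 0.13, and NAMPT, which makes it from nicotinamide, was lower (-0.74 ± 0.15). Of 2 tested surface peptidases outside the MME family, 0 were called. Among markers of other lineages, CD72 of 2 tested B lineage genes and NKG7 of 2 NK genes were higher, SPI1 of 3 myeloid genes was lower, and 0 of 3 erythroid and megakaryocyte genes were called. The CD72 call was lost in 3 of 15 alternatives, those without CCRF-CEM shTOX-2, HPB-ALL shTOX-1 or untransduced HPB-ALL.

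For shTOX against both controls, against scramble, within either line, for the difference of these between lines and between hairpins, limma called 0 genes in each case (0%), and so 0 of any list. At an unadjusted p under 0.05 there were 1277 genes (14.3%) for shTOX against both controls and 459 (5.14%) against scramble. There were 821 (9.19%) within CCRF-CEM, 677 (7.58%) within HPB-ALL, 381 (4.27%) between hairpins and 410 (4.59%) for the difference between lines. Medians of the shTOX difference from scramble were 0.02 for stem and progenitor markers, -0.23 for early lymphoid progenitor markers and -0.47 for thymocyte stage markers, against 0.02 over all tested genes. Scramble against untransduced gave medians of 0.01, -0.11 and -0.36 for the same lists, against 0.02 over all tested genes. Only 13 of the 21 tested thymocyte stage markers reached the filter level in the means of both lines. These medians were not tested.

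Against untransduced cells, calls were more frequent: 1056 genes (11.8%) for shTOX, 6.18% higher and 5.64% lower, and 95 (1.06%) for scramble, 0.582% higher and 0.482% lower. At an unadjusted p under 0.05 the shares were 29.1% and 17.5%. Both comparisons use the same untransduced arrays. Of the stem and progenitor markers, HHEX, a homeobox factor of early haematopoiesis, rose by 1.30 ± 0.22 with shTOX (adjusted p = 0.00962) and ERG by 0.76 ± 0.17 (adjusted p = 0.0226). HHEX and ERG were also higher on the scramble arrays than on the untransduced ones, but neither was called for scramble against untransduced. Scramble stood above untransduced by 1.03 for HHEX and 0.90 for ERG in CCRF-CEM, and by 1.01 and 0.81 in HPB-ALL. Of the early lymphoid progenitor markers CCR7 rose (1.12 ± 0.25) and LEF1, a T lineage factor, fell (-0.76 ± 0.17). With scramble, CCR7 was the 1 called gene of these lists (1.77 ± 0.28; adjusted p = 0.0343). That call was lost in 6 of 15 alternatives, among them the fits without either scramble array, without CCRF-CEM shTOX-2 and without untransduced CCRF-CEM.

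Of the other lists, shTOX against untransduced gave CD7 and AQP3 as lower among thymocyte stage markers, with CCR7 higher. HHEX was the 1 called early T cell precursor factor. CD7 and TRAT1 were lower among T lineage markers, and the surface protease ADAM10 was lower among 2 surface peptidases. PARP1, which consumes NAD in DNA repair, was higher (0.71 ± 0.14) among NAD genes. With scramble PARP1 was also above untransduced, at 10.05 against 9.13 in CCRF-CEM and 10.27 against 9.75 in HPB-ALL. SIRT6 was also called higher and NMNAT3 lower, but SIRT6 kept its call in 6 of 15 alternatives and NMNAT3 in 1 of 14. AQP3 kept its call in 5 of 15, TRAT1 in 8 of 15, ADAM10 in 9 of 15, ERG in 9 of 14, LEF1 in 10 of 15, CCR7 and CD7 in 11 of 15, and HHEX and PARP1 in 13 of 15. Leaving out the untransduced HPB-ALL array makes untransduced CCRF-CEM the only untransduced array, so calls within the lists are not read from that fit. Without the untransduced CCRF-CEM array none of these 11 genes was called, and 25 genes in all were. The 1056 calls became 360 without the untransduced HPB-ALL array, 584 without its shTOX-2 array, 608 without CCRF-CEM shTOX-1 and 654 without CCRF-CEM shTOX-2.

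The plot of progenitor-list genes shows how CD34 and MME compare with 31 other tested genes of the first 2 lists. In CCRF-CEM, 10 of the 31 were above the untransduced array on all 3 transduced arrays and 7 below, where 36.9% and 30.5% of all tested genes were. HHEX and CCR7 were at least 1 above on all 3, and RAG2 and CCR9 at least 1 below. In HPB-ALL 11 were above and 8 below, against 33.6% and 27.9% of all tested genes, and 0 were at least 1 apart on all 3.

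**Figure D3:**
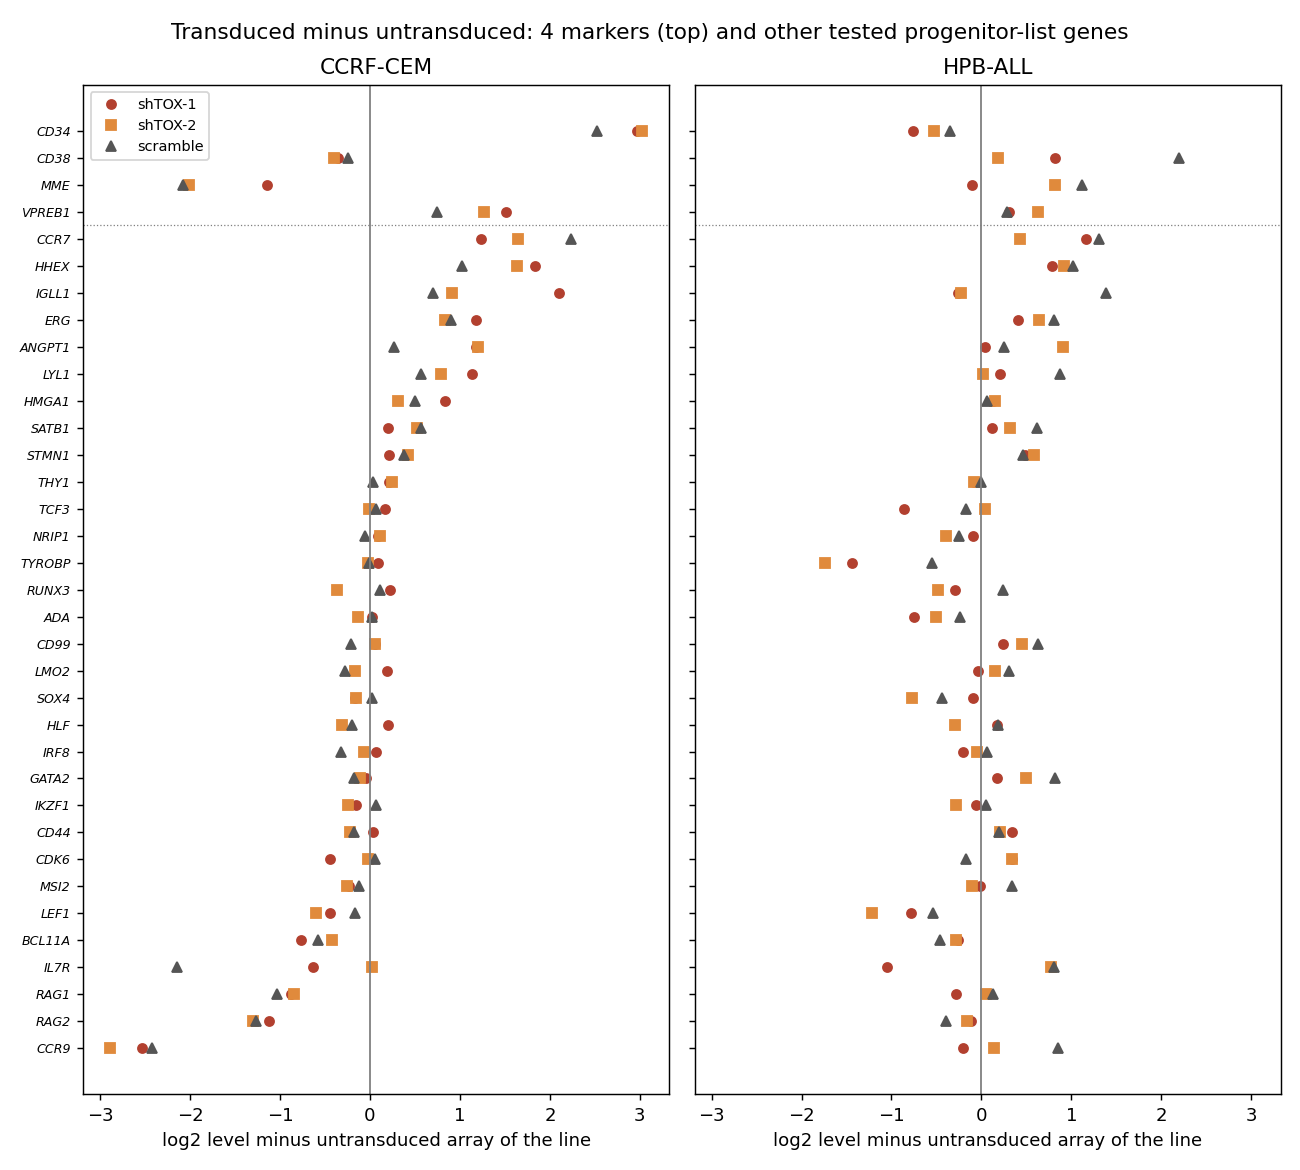
Log2 level minus that of the untransduced array of the same line (x axis) for CD34, CD38, MME and VPREB1 (above the dotted line) and 31 other tested genes of the stem, progenitor and early lymphoid lists (y axis), with 1 symbol per transduced array. CD34 lies at 2.53 to 3.03 in CCRF-CEM, to the right of all other genes shown, and CCR9 at -2.89 to -2.42 to the left.

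Genes with the most similar pattern were found after subtracting each line's mean, as the smallest root mean square difference over the 8 arrays. For CD34 these were GBP4 (0.35), EOGT (0.44) and CPNE2 (0.51), against 0.90 for a gene that did not vary at all. GBP4 had 8.27 with shTOX-1, 7.88 with shTOX-2 and 7.26 with scramble, against 4.48 in untransduced CCRF-CEM cells. In HPB-ALL GBP4 lay between 3.79 (scramble) and 4.33 (shTOX-1), below the filter level, whereas CD34 was lowest there with shTOX-1. For MME they were NEGR1 (0.30), ULBP1 (0.34) and ZNF555 (0.36), against 0.70 for a flat gene. For CD38 they were ACY3 (0.24), MIR210HG (0.26) and NCF1C (0.26), against 0.62. ACY3 had 8.10 with shTOX-1, 7.71 with shTOX-2, 9.33 with scramble and 7.69 untransduced in HPB-ALL. For VPREB1 they were ZNF521 (0.14), HERC5 (0.14) and CPT1A (0.15), against 0.44. With 8 arrays and 8930 genes, close matches of this kind can be found for many profiles, and no p was taken.

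**Figure D4:**
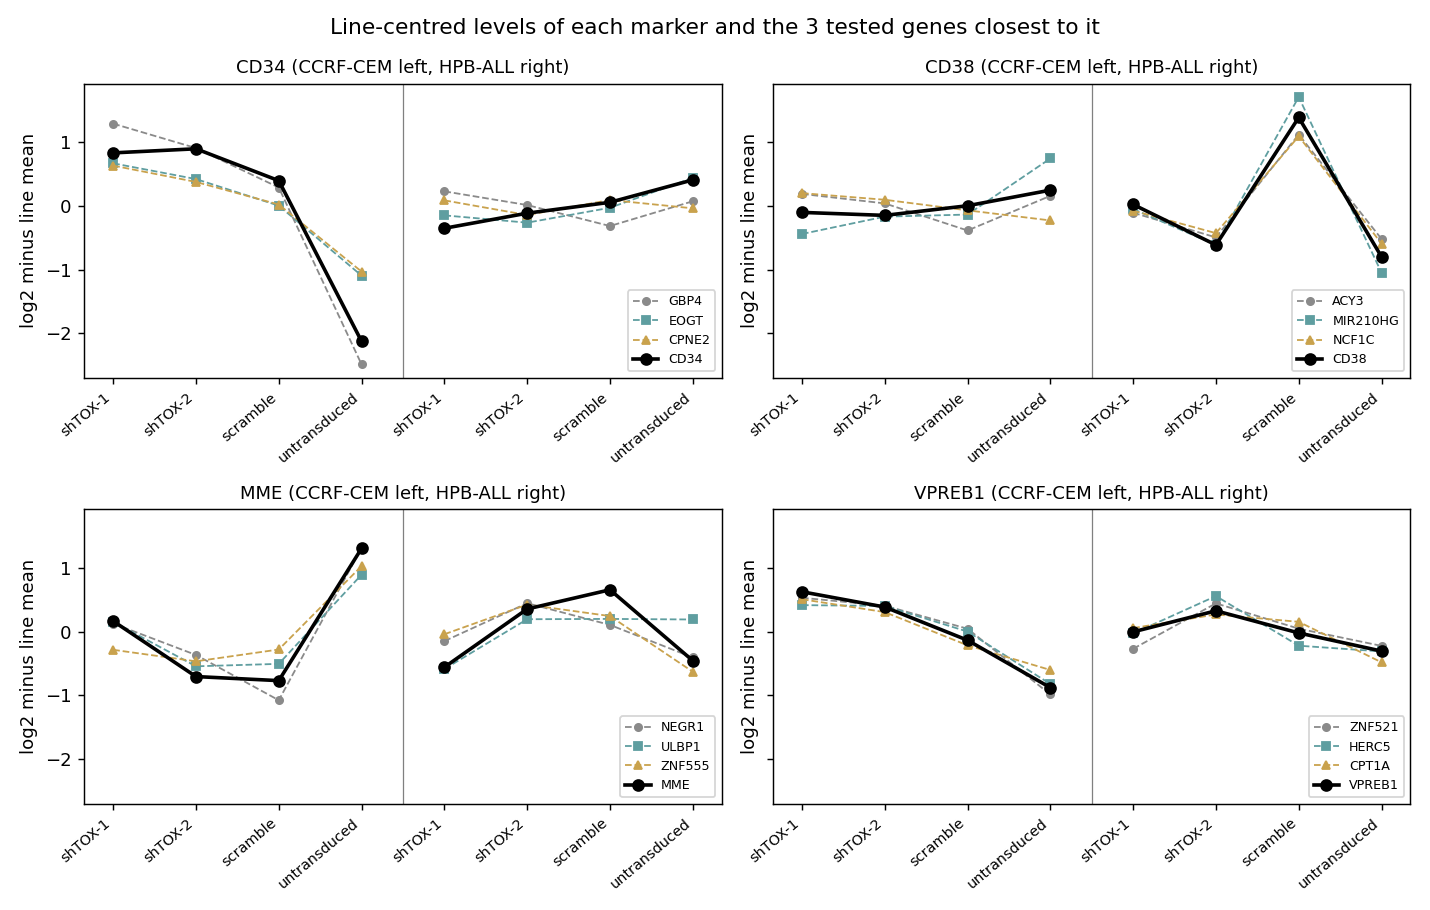
Log2 level minus the line's mean (y axis) by construct (x axis; CCRF-CEM left and HPB-ALL right in each panel) for each marker in black and the 3 tested genes closest to it, 1 point per array. GBP4 shares with CD34 a low untransduced CCRF-CEM array (4.48), but not the order of the HPB-ALL arrays. ACY3 follows CD38 with a high scramble array in HPB-ALL (9.33).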

How the data were processed

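The deposited table gives 1 log2 value per probe set and array; that these are log2 intensities was judged from their range, since how the authors corrected background, summarized and normalized is not given in the sources used here. Per the labels' protocols, total RNA was labelled for Affymetrix whole-transcript arrays. Of 53617 probe sets, 16098 had 1 gene symbol and 37519 none; all 16098 Entrez identifiers matched RefSeq, with 0 differing symbols. They stood for 14884 genes; 779 had several probe sets, of which the brightest was used. The test kept the 8930 genes whose mean reached the 40th percentile of all gene means (log2 5.18).

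Differences came from lmFit, contrasts.fit and eBayes without trend (limma 3.58.1, run under R 4.3.3) on all 8 arrays, with line as a term or a mean per line and state, and a call meant a p under 0.05 after Benjamini-Hochberg adjustment over all tested genes. Controls are the scramble and untransduced arrays together. Values after ± are standard errors unless marked SD. No combination of line and construct was repeated on a further array. The spread behind standard errors and p-values therefore includes differences between constructs pooled in a fit. In fits with line as a term, it also includes differences between the lines in how constructs differed. Technical spread and spread between cultures cannot be separated from these, and separate cultures are not stated. The number of arrays limits precision. The script was tested on simulated data.

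The 4 markers and the gene lists were chosen with earlier results of these data known. The lists were stem and progenitor, early lymphoid, surrogate light chain and pre-B receptor, thymocyte stage, early T cell precursor, relatives of CD34, of CD38 and of MME, other surface peptidases, NAD metabolism and 5 lineage lists. The text names the 4 markers, TOX, up to 4 called genes per list and comparison by size, measured relatives and pre-B receptor genes, and the 3 genes closest to each marker; RAG2, CD27, CD69 and CD8B were named after their values were seen. The labels share construct numbers across lines. Deviations of same-construct arrays from the line means correlated at -0.08 for scramble, 0.24 for shTOX-1, 0.38 for shTOX-2 and 0.57 for untransduced. The main fits did not take these arrays as pairs, and the correlations do not settle that choice. With construct as a term, the 0 calls of shTOX against both controls became 16, and the 2443 between lines became 2907. Filters, quantile normalization, the trend option, probe set choice, the line and construct terms and leaving out arrays were varied.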

Additional observations from a re-analysis of the deposited data

Results flagged for a closer look

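CD34 in CCRF-CEM is listed because the untransduced array stood apart: the gap to its nearest neighbour took up 0.834 of the range of the 4 arrays. This is a description and no test, since CD34 was chosen with these levels known. By Dixon's ratio, chance marks about 1 of 20 groups, and 8 groups of marker and line were looked at.

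CD34 was also marked because both shTOX arrays lay above the mean of the controls in CCRF-CEM and both below it in HPB-ALL. The mean shTOX differences of the lines (CCRF-CEM minus HPB-ALL) lay 2.20 apart against the mean of controls and 0.76 apart against scramble. MME went opposite ways against scramble, above it in CCRF-CEM and below it in HPB-ALL, with the lines 1.26 apart. In CCRF-CEM it was above scramble by 0.94 with shTOX-1 but by 0.06 with shTOX-2. These differences between lines were not tested for CD34 and MME, and the HPB-ALL levels of CD34 were all below the filter level. MME in HPB-ALL was also below that level with shTOX-1 (4.37) and untransduced (4.47).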

How the results depend on the processing

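Calls over all genes depended on the settings as follows. For shTOX against both controls, the 0 calls became 16 in the replicate block (construct as a term) and 0 to 4 when each array was left out in turn. The 0 calls against scramble, and between hairpins, stayed at 0 to 0 with 1 array left out. Against untransduced cells, the 1056 calls for shTOX became 25 to 1080, and 1 with no line term. The 25 came without the untransduced CCRF-CEM array. The 95 calls for scramble became 3 to 90 with 1 array left out, 162 with a filter at the 60th percentile, 182 with the trend option, 30 with all probe sets and 0 with no line term. The 2443 calls between the lines became 1817 to 2471, and 5042 with all probe sets. Within CCRF-CEM the 0 calls became 0 to 65, within HPB-ALL 0 to 1, and for the difference between lines 0 to 8; the 65 and the 8 came without the CCRF-CEM scramble array. The replicate block, also run between lines and between hairpins, moved neither of those counts by over 1.5 times. The causes of these changes in the counts were not tested.

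Of 536 values of the 4 markers under alternatives, 494 stayed within 1 residual SD of the value reported and 42 moved by more. Each marker has 1 probe set, so the filters, the trend option and probe set choice could not move its difference. For shTOX against both controls, the construct and line terms left it unchanged too. Such fixed outcomes are among the 494, and the residual SD includes arrays that stood apart, so the 494 is no measure of stability. In 19 pairs of marker and comparison the sign differed under some alternative. IGLL1 kept its call between the lines in 15 of 15 alternatives. No called gene that is named reversed. Low signal in HPB-ALL limits CD34 and MME there.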
